A study of Arabidopsis thaliana with 6 samples.

Results

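The genes described here are the pathogenesis-related (PR) marker genes of Arabidopsis thaliana in closed flower buds. They are PR1, PR2, PR3, PR4, PR5 and AT3G57240, a glucanase gene beside PR2 that the deposited files name BG3. They were taken by gene identifier and make up 6 of the 33037 features in the count table. RNA was sequenced from closed buds of wild-type plants (WT) and of plants carrying naa50-1, an allele of NAA50 (AT5G11340), which encodes an N-terminal acetyltransferase. Each genotype had 3 biological replicates, and the labels give no treatment, age or accession; the lesion in the allele is not given in the sources used here.

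PR genes encode secreted or vacuolar proteins that accumulate in plants after infection, and they are widely used to read out the state of defence signalling. In leaves, PR1, PR2 and PR5 are the usual markers of the salicylate branch, in which the receptor NPR1 acts with TGA transcription factors. PR3 and PR4 are usually taken as markers of the ethylene and jasmonate branch. By function, PR2 and BG3 are glucanases, which cut glucans of the callose type, PR3 is a basic chitinase, PR4 is a chitin-binding protein related to hevein, PR5 is a thaumatin-like protein, and PR1 belongs to a family of small cysteine-rich secreted proteins.

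PR1 (AT2G14610) lies on chromosome 2 at 6241640 to 6242541 on the minus strand and has 1 exon. PR2 (AT3G57260) and BG3 (AT3G57240) lie on the minus strand of chromosome 3, at 21188397 to 21189967 and at 21181642 to 21183144. PR3 (AT3G12500) is at 3962136 to 3963984 and PR4 (AT3G04720) at 1285425 to 1286760, also on the minus strand of chromosome 3. PR5 (AT1G75040) lies on the plus strand of chromosome 1 at 28177670 to 28179022. Each of these 5 genes has 2 exons. The coordinates are those of the deposited files on TAIR10, and those of all 6 genes equal the TAIR10.1 reference annotation. PR3 overlaps a non-coding gene on the opposite strand, AT3G12502 (3963124 to 3964222), which had no count in any library. The strand setting of the counting is not given in the sources used here. Whether the overlap lowers the counts of PR3 was not tested. The closest other transcripts in aligned sequence were 80.9% identical to PR1 over 650 bases (PRB1) and 78.2% identical to PR5 over 784 bases (AT1G75050). PR2 and BG3 were 73.7% identical to each other over 1056 bases.

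The 250 bases before the annotated start of 3 of the genes are shown 5′ to 3′ on the gene's strand, from the TAIR10.1 genome of RefSeq. In PR5 the capitals mark the core of the W-box, the element that WRKY transcription factors bind (TTGAC, here written GTCAA because it lies on the other strand). In PR2 and BG3 they mark the longest run of bases that this pair of neighbouring genes shares. The windows are chr1:28177420-28177669 for PR5 (plus strand), chr3:21189968-21190217 for PR2 (minus strand) and chr3:21183145-21183394 for BG3 (minus strand).
PR5: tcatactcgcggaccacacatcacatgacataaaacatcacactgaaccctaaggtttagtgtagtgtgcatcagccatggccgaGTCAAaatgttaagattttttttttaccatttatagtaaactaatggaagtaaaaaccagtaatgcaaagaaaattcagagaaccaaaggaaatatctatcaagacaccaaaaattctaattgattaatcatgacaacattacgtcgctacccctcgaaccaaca
PR2: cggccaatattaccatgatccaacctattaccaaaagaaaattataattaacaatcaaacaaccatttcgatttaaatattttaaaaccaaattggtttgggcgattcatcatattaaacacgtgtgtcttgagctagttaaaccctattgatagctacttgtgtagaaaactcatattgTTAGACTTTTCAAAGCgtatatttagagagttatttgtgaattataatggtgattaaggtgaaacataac
BG3: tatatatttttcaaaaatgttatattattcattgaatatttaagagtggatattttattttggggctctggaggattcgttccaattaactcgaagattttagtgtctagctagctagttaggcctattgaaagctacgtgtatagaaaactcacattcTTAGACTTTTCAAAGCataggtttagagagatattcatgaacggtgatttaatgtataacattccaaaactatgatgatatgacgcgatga

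Both strands of the 250-base windows of PR2, PR3, PR4, PR5 and BG3 were searched for 3 motifs: the W-box core TTGAC, the element TGACG that TGA factors bind, and the GCC box core GCCGCC that ethylene response factors bind. The first pair of motifs can share bases, since TTGACG holds both. The W-box core was found in 1 of these 5 genes, on the other strand at 165 to 161 bases before the start of PR5. It stood in 44.9% of 27443 promoter windows of the same length and in 55.6% of those of the genes called higher in the comparison below. TGACG was found in PR3, at 156 to 152 bases before the start in a window that overlaps AT3G12502, and in BG3 at 11 to 7 bases. It stood in 18.6% of all windows and in 20.9% of those of the genes called higher. GCCGCC was in none of the 5 windows, in 1.87% of all windows and in 1.47% of those of the genes called higher. The windows of PR2 and PR4 held none of the 3 motifs. PR2 and BG3 shared the 16-base run TTAGACTTTTCAAAGC, at 70 to 55 bases before the start of PR2 and 91 to 76 before that of BG3. On either strand it stood in 2 of the 27443 windows, those of these 2 genes. The other pairs among the 5 genes shared at most 10 bases in a row. These matches describe the letters in the windows only.

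Library totals ran from 19727584 to 20813563 counts. NAA50, the gene that the allele is named for, was at 27.6, 27.8 and 23.6 CPM (counts relative to library size, scaled by TMM factors) in the WT libraries and at 2471, 2551 and 3018 CPM in those labelled naa50-1. Its level was thus 102-fold higher under the mutant label (adjusted p = 6.5e-08, edgeR quasi-likelihood test with Benjamini-Hochberg adjustment over all genes tested). These counts are summed over the gene and do not show whether the transcript is whole. Every direction below is therefore given by label, as that of the libraries labelled naa50-1 against WT. Of 21196 genes that passed the count filter, 9.53% were called at an adjusted p under 0.05: 836 higher (3.94%) and 1185 lower (5.59%). The median log2 fold change of all genes tested was -0.0087. For 11.6% of the genes tested, all 3 libraries labelled naa50-1 lay above all 3 WT libraries in CPM. Fewer cells of a type and less RNA per cell cannot be told apart in these bulk samples.

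Of the 6 PR genes, 5 passed the filter and 4 of them were called higher in the libraries labelled naa50-1: PR2, BG3, PR1 and PR5. The share called higher among all genes tested was 3.94%. PR4 did not pass the threshold, and PR3 had too few counts to be tested. PR2, with PR5 behind it, made up most of the signal of the family in the libraries labelled naa50-1. The summed level of the 6 genes was 14.7 to 23.9 CPM in WT and 209 to 444 CPM in the libraries labelled naa50-1, and the share of PR2 in their counts was 6.95% to 14.6% in WT and 63.1% to 73.6% in the others.

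**Figure D1:**
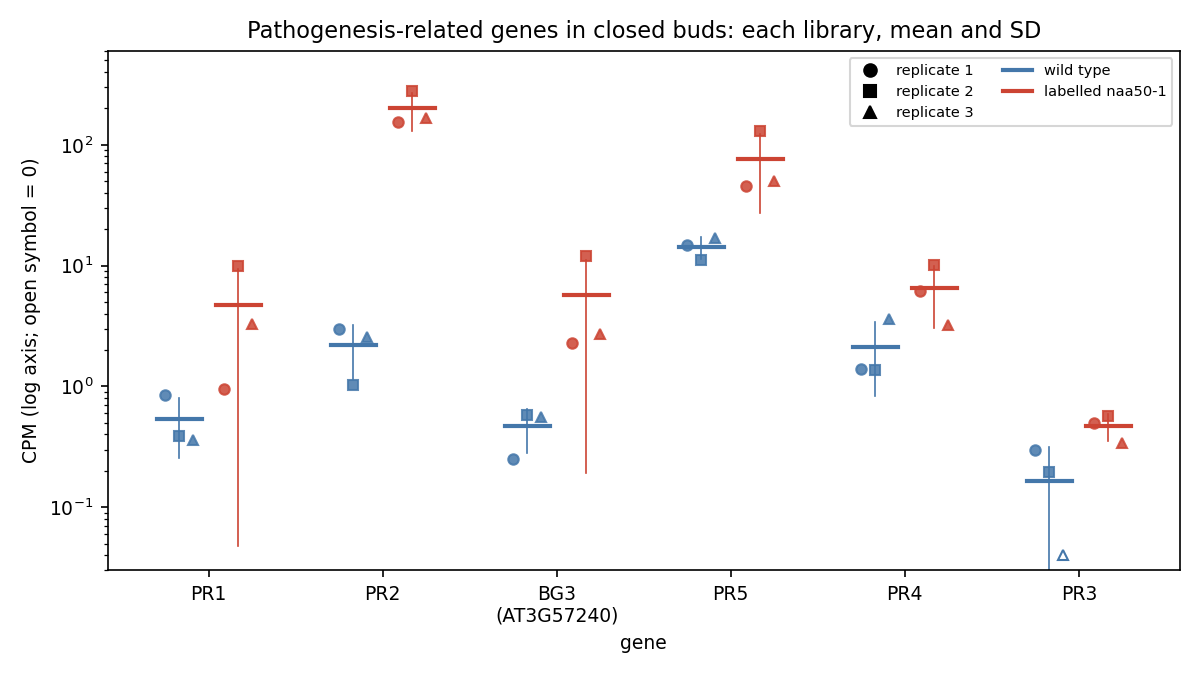
Level of each PR gene in CPM (log axis) in the 3 WT libraries (blue) and the 3 libraries labelled naa50-1 (red), with symbols for replicates, a bar for the mean and a line for 1 SD (clipped at the lower edge for PR3); the open symbol is a library with 0 counts. PR2 shows the widest gap between the groups, PR4 overlaps, and replicate 2 is the highest of the red symbols for all 6 genes.

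PR2, the glucanase most often used as a salicylate marker, was at 3.002, 1.02 and 2.56 CPM in WT replicates 1 to 3 and at 154, 280 and 166 CPM in the libraries labelled naa50-1. The groups were far apart: the lowest library labelled naa50-1 was 51.3 times the highest WT library. The mean rose from 2.19 ± 1.04 to 200.04 ± 69.4 CPM (SD, n = 3), 91.2-fold; on the log2 scale the change was 6.51 with an SE of 0.37 (edgeR adjusted p = 3.52e-06). PR2 ranked 16 of the 21196 genes by log2 fold change. It kept its call in all 18 settings tried.

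BG3, the neighbouring glucanase, was at 0.250, 0.585 and 0.563 CPM in WT and at 2.30, 12.0 and 2.73 CPM in the libraries labelled naa50-1. These levels rest on 5, 12 and 11 counts in WT and 46, 255 and 56 counts in the others. The groups did not overlap, and replicate 2 stood well above the other libraries of its label. The mean rose 12.2-fold, from 0.466 ± 0.187 to 5.69 ± 5.50 CPM, or by 3.59 on the log2 scale with an SE of 0.71 (edgeR adjusted p = 0.00917). Without naa50-1 replicate 2 the log2 fold change was 2.42 (adjusted p = 0.00747, edgeR). The call was lost in 3 of the 18 settings, with limma-voom, by which 3.56% of genes were called higher, and with log2(FPKM + 1) under either filter.

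The ratio of PR2 to BG3, in FPKM (a level per transcript length and library size), was 11.4, 1.66 and 4.31 in WT and 63.2, 22.0 and 57.8 in the libraries labelled naa50-1. The ratios did not overlap, being higher in every library labelled naa50-1. The difference in the mean log2 ratio was 3.32, with p = 0.1 by a two-sided exact permutation test, the smallest p that 3 against 3 libraries can give. Leaving out each library in turn gave 2.63 to 4.02.

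PR5, the thaumatin-like member, was at 14.7, 11.2 and 16.8 CPM in WT and at 45.3, 131 and 49.998 CPM in the libraries labelled naa50-1. All 3 of the latter lay above WT, with replicates 1 and 3 close together and replicate 2 well above them. The mean rose 5.31-fold, from 14.2 ± 2.86 to 75.5 ± 48.3 CPM, or by 2.41 on the log2 scale with an SE of 0.38 (edgeR adjusted p = 0.00251). The rise was smaller, but still called, without naa50-1 replicate 2 (log2 fold change 1.75, adjusted p = 0.000139, edgeR). PR5 was called in all 18 settings.

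PR1, the most widely used salicylate marker of the group, was scarce in these buds. It had 17, 8 and 7 counts in WT and 19, 211 and 67 in the libraries labelled naa50-1, or 0.850, 0.390 and 0.358 CPM against 0.952, 9.95 and 3.26 CPM. Replicate 1 labelled naa50-1 stood only just above the highest WT library, 1.12 times its level, and replicate 2 was 10.5 times replicate 1. The mean rose 8.86-fold, from 0.533 ± 0.276 to 4.72 ± 4.67 CPM, or by 3.14 on the log2 scale with an SE of 0.78 (edgeR adjusted p = 0.0325). This call rests on few libraries: without naa50-1 replicate 2 the log2 fold change was 1.97 (adjusted p = 0.0937, edgeR), and it was also lost without any single WT library. PR1 passed in 9 of the 18 settings, with adjusted p from 7.996e-05 to 0.209 over them (edgeR, DESeq2 and limma).

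PR4, the hevein-like member, was at 1.40, 1.36 and 3.63 CPM in WT and at 6.21, 10.09 and 3.21 CPM in the libraries labelled naa50-1. The groups overlapped, since the highest WT library was above the lowest of the others. The means were 2.13 ± 1.298 and 6.51 ± 3.45 CPM and the log2 fold change 1.61 with an SE of 0.48 (edgeR adjusted p = 0.0750), which did not pass. It passed in 4 of the 18 settings: with no count filter (adjusted p = 0.0419, edgeR), with DESeq2, by which 4.11% of genes were called higher (adjusted p = 0.00693), and without WT replicate 3 or naa50-1 replicate 3.

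PR3, the basic chitinase, had 6, 4 and 0 counts in WT and 10, 12 and 7 counts in the libraries labelled naa50-1. These counts were below the filter of the main comparison. In the fit without a filter, in which 3.41% of 27396 genes were called higher, its log2 fold change was 1.47 (adjusted p = 0.404, edgeR). It passed in 0 of the 7 settings in which it was tested, and a difference was not detectable at these counts.

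**Figure D2:**
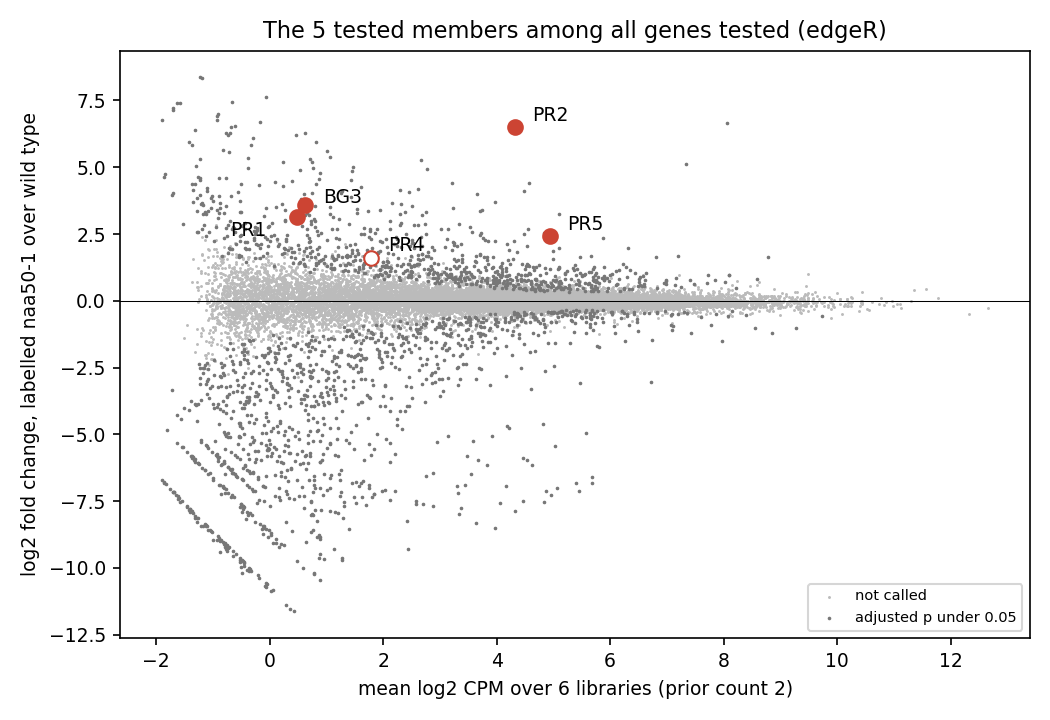
Log2 fold change of the libraries labelled naa50-1 over WT against mean log2 CPM for the 21196 genes tested, with genes past an adjusted p of 0.05 in dark grey and the 5 tested PR genes in red (open: not called). PR2 stands at 6.51, far above genes of its level, while BG3 and PR1 lie at low levels.

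Replicate 2 was the highest of the 3 libraries labelled naa50-1 for each of the 6 PR genes. Its level was 4.78 times the mean of the other libraries of its label for BG3, 4.72 times for PR1, 2.75 times for PR5, 2.14 times for PR4, 1.75 times for PR2 and 1.34 times for PR3. The same library was highest for 33.2% of all genes tested and for 62.9% of the 836 genes called higher. No such common order was seen in WT, where the highest library was replicate 1 for PR1, PR2 and PR3, replicate 2 for BG3 and replicate 3 for PR4 and PR5. Without naa50-1 replicate 2, 3 PR genes (PR2, BG3 and PR5) were called higher, against 3.12% of all genes tested in that fit.

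In the authors' deposited table, in which 4.0% of 26574 genes with an adjusted p were called higher, 5 of the 6 genes had an adjusted p under 0.05. In the authors' deposited table the log2 fold changes were 6.51 for PR2, 3.62 for BG3, 3.15 for PR1, 2.41 for PR5, 1.62 for PR4 and 1.51 for PR3. The adjusted p of PR4 there was 0.00685 and that of PR3 0.543. PR4 is the gene on which the authors' deposited table and the edgeR test differ.

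**Figure D3:**
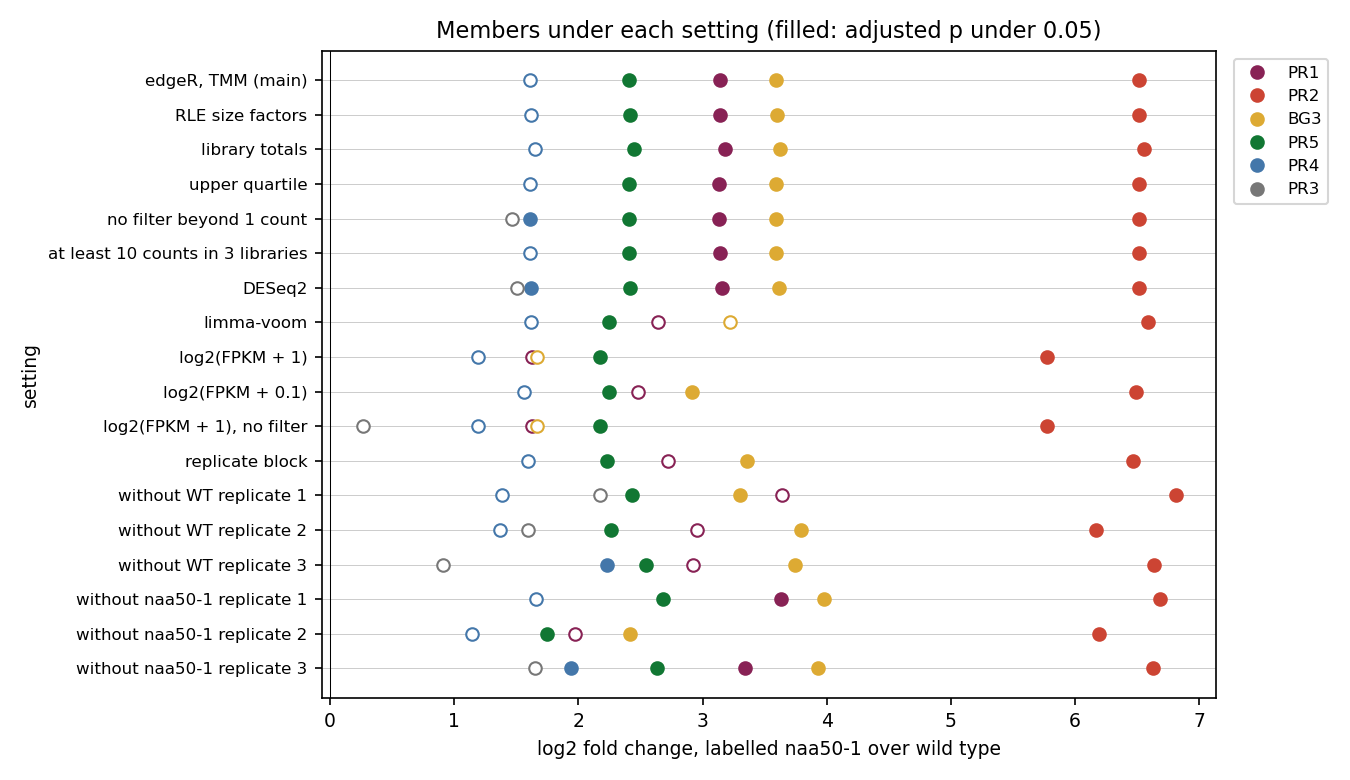
Log2 fold change of each PR gene under the main edgeR fit and 17 other settings, filled where the adjusted p was under 0.05. PR2 (5.77 to 6.81) and PR5 (1.75 to 2.68) are filled in every setting, PR1 in 9 of 18, and PR3 appears only where it was tested and is never filled.

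Levels per length, in the deposited FPKM, put the genes in a different order in the 2 genotypes. In WT, PR5 was highest at 12.9 ± 2.65 FPKM, followed by PR4 at 1.87, PR2 at 1.48, PR1 at 0.588, BG3 at 0.330 and PR3 at 0.120 FPKM. The gap between PR5 and PR4 was the only one between neighbours in that order whose library values did not overlap. In the libraries labelled naa50-1, PR2 was highest at 135 ± 47.3 FPKM and PR5 next at 68.8 ± 44.2 FPKM. The values of this pair overlapped between libraries, but PR2 was above PR5 within each of the 3. PR4 followed at 5.72, PR1 at 5.23 and BG3 at 4.06 FPKM, which overlapped, and PR3 was lowest at 0.341 FPKM, below every value of BG3.

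Of the genes of the same family that lie beside PR1, PR2 and PR5, BG3 was the only one called. PR2 and BG3 are 5252 bases apart, and AT3G57250, a gene with an ENT domain that lies between them, was not called (log2 fold change 1.91, adjusted p = 0.0974, edgeR). BG1 (AT3G57270), the glucanase on the other side of PR2, had 5 counts in all in WT and 22 in the libraries labelled naa50-1, and was not tested. PR5 has a thaumatin-like gene on each side, and for both the groups overlapped. ATLP-3 (AT1G75030) was at 46.9 ± 19.6 and 44.4 ± 17.9 CPM, a log2 difference of -0.08 (edgeR adjusted p = 0.944), and AT1G75050 at 16.4 ± 7.29 and 14.0 ± 3.18 CPM, a log2 difference of -0.23 (edgeR adjusted p = 0.765). PRB1 (AT2G14580), a basic relative of PR1 close to it on chromosome 2, had 1 count in all 6 libraries together.

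The nearest tested genes were then read, 5 to either side of a PR gene and 10 in all. Of these, 1 was called higher and 0 lower around PR2 (BG3) and around BG3 (PR2). Around PR3 and PR5, 0 were called. Among all genes tested, 3.94% were called higher and 5.59% lower. Around PR4, 0 were higher and 1 was lower, AT3G04700 (log2 fold change -1.65, edgeR adjusted p = 0.0330), which, of the fits with 1 library left out, kept its call only in that without WT replicate 1. Around PR1, 1 was higher and 1 was lower, the latter an unannotated transcript at 6163806 to 6166443 on chromosome 2 (log2 fold change -1.43, edgeR adjusted p = 0.0111). The one called higher was LURP1 (AT2G14560), known for its rise on infection by an oomycete, 25.7 kb from PR1. AT3G04700, the unannotated transcript and LURP1 are named here after their values were seen. LURP1 was at 4.05, 3.07 and 3.48 CPM in WT and at 6.16, 29.3 and 8.13 CPM in the libraries labelled naa50-1, with replicate 2 again the highest (log2 fold change 2.04 ± 0.53 SE, adjusted p = 0.0385, edgeR). Without naa50-1 replicate 2 its log2 fold change was 1.02 (edgeR adjusted p = 0.0376), and without any single WT library it was not called (adjusted p from 0.0989 to 0.125).

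**Figure D4:**
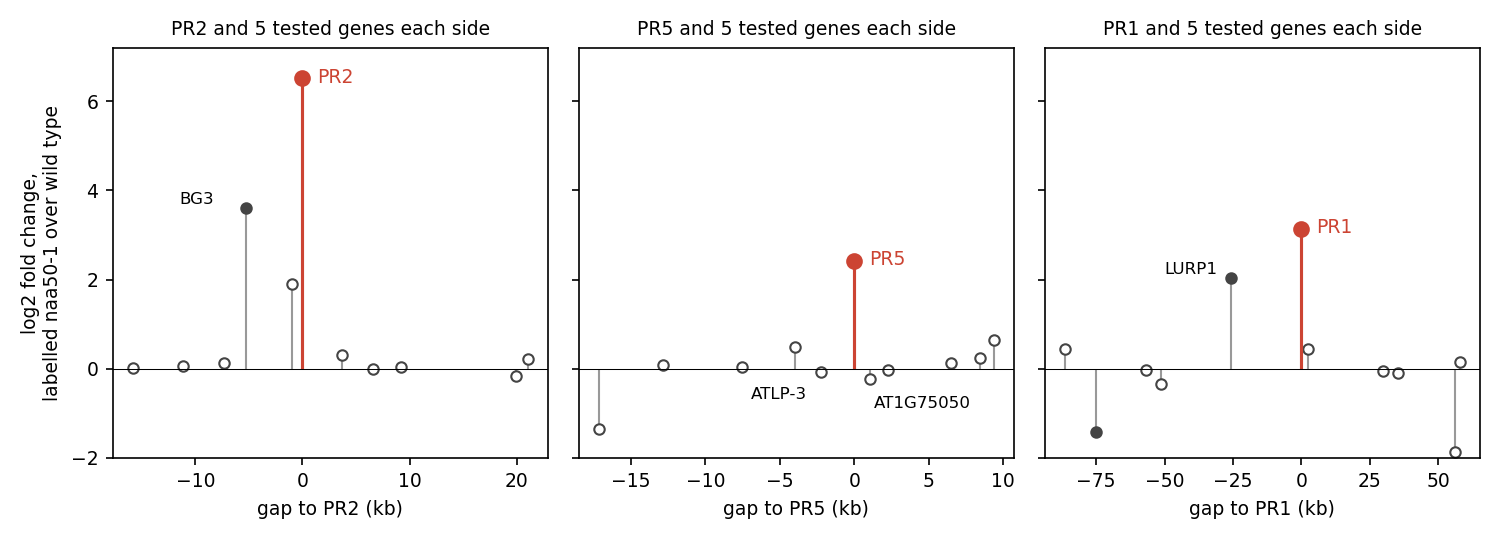
Log2 fold change of PR2, PR5 and PR1 (red) and of the 5 tested genes on each side of it (grey, filled where the adjusted p was under 0.05) against the gap to the PR gene in kilobases. BG3 beside PR2 is called higher, ATLP-3 and AT1G75050 beside PR5 stay near 0, and LURP1 is called higher near PR1.

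The regulators that act between salicylate and the PR genes were compared as a list of 22 genes, of which 21 were tested. Of these, 6 were called higher and 0 lower, against 3.94% and 5.59% of all genes tested. Their median log2 fold change was 0.23, against -0.0087 for all genes tested. Without naa50-1 replicate 2, 5 were higher, against 3.12% of genes tested in that fit. The 6 were WRKY46, WRKY53, WRKY18, WRKY38, WRKY70 and NIMIN2, whose product binds NPR1. WRKY70 was called in 12 and NIMIN2 in 11 of the 18 settings. NIMIN2 lost its call without naa50-1 replicate 2 (adjusted p = 0.120, edgeR). WRKY46, a defence-linked WRKY factor, rose from 2.09 ± 0.98 to 44.3 ± 17.9 CPM, by 4.40 on the log2 scale (edgeR adjusted p = 3.41e-05). WRKY53, also linked to leaf senescence, rose from 2.26 ± 0.477 to 12.99 ± 6.77 CPM (2.52, adjusted p = 0.00173, edgeR). WRKY18 rose from 10.05 ± 0.926 to 23.5 ± 8.11 CPM (1.23, adjusted p = 0.00634, edgeR). WRKY38 had 1 count over the WT libraries and 118 over the others (log2 fold change 6.38, adjusted p = 0.00738, edgeR). Its libraries labelled naa50-1 were at 1.15, 4.01 and 0.487 CPM, and without naa50-1 replicate 2 its log2 fold change was 5.17. Without WT replicate 2, the library with its only WT count, the log2 fold change was 8.26. WRKY38 was called in 16 of the 18 settings. The receptor genes NPR1, NPR3 and NPR4, named here after their values were seen, were not called. The TGA factor genes TGA1 to TGA7, also named after their values were seen, were not called either (adjusted p from 0.265 to 0.765, edgeR). NPR1 was at 21.2 ± 3.67 and 24.6 ± 5.25 CPM, a log2 difference of 0.22 (edgeR adjusted p = 0.610).

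The genes that make, modify or control salicylate and N-hydroxypipecolate, 17 in the list and 15 tested, held 9 called higher and 0 lower. Among all genes tested, 3.94% were called higher and 5.59% lower. The median log2 fold change of the list was 1.19. As many of its genes were higher without naa50-1 replicate 2, against 3.12% of genes tested in that fit. The N-hydroxypipecolate synthesis genes SARD4, ALD1 and FMO1, named here after their values were seen, were not among the 9. SARD4 was not called (log2 fold change 0.43, adjusted p = 0.210, edgeR), and ALD1 and FMO1 had too few counts to be tested. EDS1 and PAD4, lipase-like partners in immune signalling, rose from 28.3 ± 1.65 to 90.3 ± 16.4 CPM, by 1.67 on the log2 scale (edgeR adjusted p = 3.78e-05), and from 9.73 ± 1.56 to 36.5 ± 11.7 CPM (1.91, adjusted p = 0.000329, edgeR). SARD1, a transcription factor for salicylate synthesis genes, rose from 2.13 ± 0.327 to 19.96 ± 10.2 CPM (3.22, adjusted p = 0.000206, edgeR). DMR6, which hydroxylates salicylate, rose from 17.4 ± 2.62 to 68.7 ± 15.2 CPM (1.98, adjusted p = 5.48e-05, edgeR). All 3 libraries labelled naa50-1 lay above all 3 WT libraries for these 4 genes, as they did for 11.6% of all genes tested. These 4 genes were named for the smallest p in the list, which favours such a gap.

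The ethylene and jasmonate branch, for which PR3 and PR4 serve as markers, held 23 genes, 18 of them tested. Of these, 2 were called higher and 0 lower, against 3.94% and 5.59% of all genes tested (median log2 fold change 0.34). Without naa50-1 replicate 2, again 2 were higher, against 3.12% of genes tested in that fit. ERF104, an ethylene response factor, rose from 1.43 ± 0.351 to 9.25 ± 7.22 CPM (2.69, adjusted p = 0.00766, edgeR); its libraries labelled naa50-1 were at 5.01, 17.6 and 5.16 CPM, and without replicate 2 the log2 fold change was 1.82 (adjusted p = 0.00496, edgeR). ACS2, an ethylene synthesis enzyme, rose from 0.199 ± 0.045 to 1.32 ± 0.557 CPM (2.69, adjusted p = 0.00603, edgeR). The count for this list moved with the setting, from 1 with limma-voom to 5 with DESeq2 or with no count filter. The defensin gene PDF1.2C, a marker of this branch named after its values were seen, was at 0.560 ± 0.847 and 1.86 ± 2.16 CPM and was not called (adjusted p = 0.472, edgeR). MYC2 was listed at 0 in all 6 libraries, and whether its reads were missed in the counting was not tested.

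**Figure D5:**
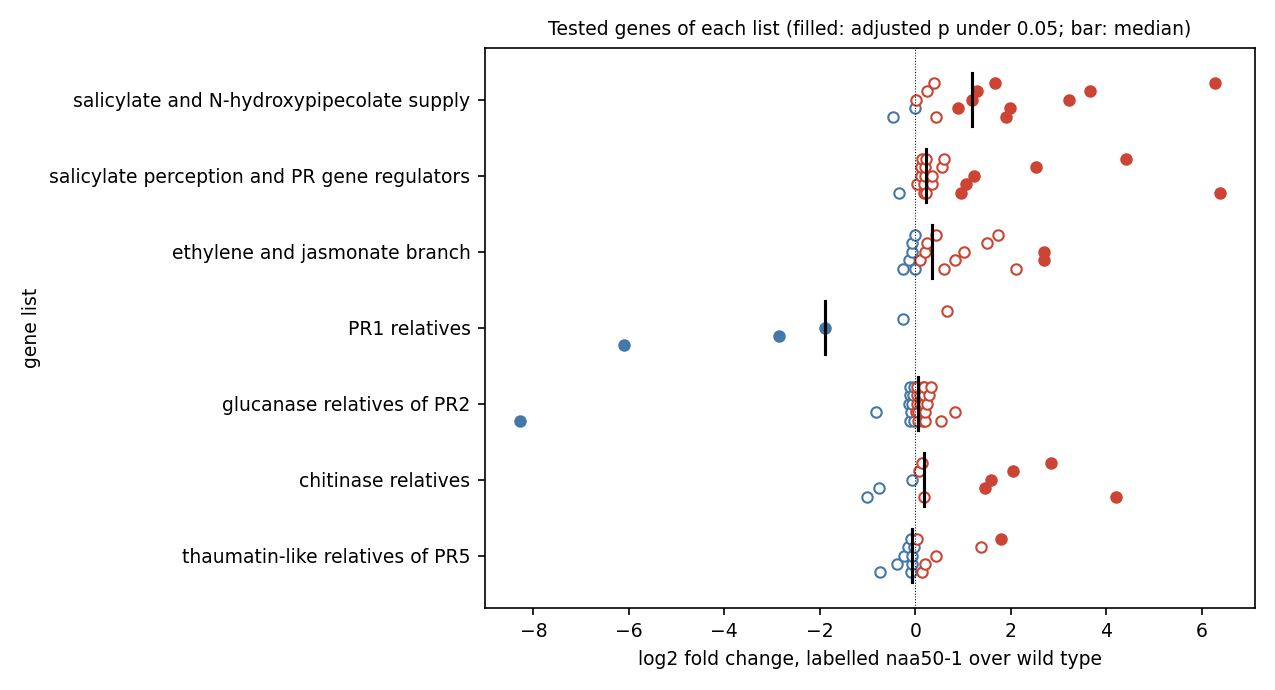
Points give the log2 fold change of each tested gene, filled where the adjusted p was under 0.05. The lists are those of salicylate, ethylene and jasmonate genes and 4 lists of PR gene relatives by family or activity. A bar stands at each list's median. The median is 1.19 for salicylate and N-hydroxypipecolate supply and -1.90 for the PR1 relatives.

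Of the relatives of PR1, PR2 and PR5 in the same protein families, BG3 and the other PR genes not counted, 1 was called higher. Among all genes tested, 3.94% were called higher and 5.59% lower. Among 21 relatives of PR1, 5 were tested, 0 were called higher and 3 were lower. These were AT4G25780 (15.0 ± 6.92 to 2.07 ± 0.150 CPM, log2 fold change -2.85), AT2G19980 (1.16 ± 0.088 to 0.307 ± 0.067 CPM, -1.90) and AT1G01310 (10.5 ± 4.36 to 0.144 ± 0.128 CPM, -6.11). AT2G19980 lost its call without naa50-1 replicate 1 or 3 (adjusted p = 0.0533 and 0.0614, edgeR). Among 40 glucanase relatives of PR2, BG3 not counted, 32 were tested, 0 were higher and 1 was lower. The latter was AT5G64790, with 720 counts over the WT libraries and 2 over the others. Among 19 thaumatin-like relatives of PR5, 15 were tested and 1 was higher: PR5K, a receptor kinase with a thaumatin-like domain (0.604 ± 0.328 to 2.09 ± 0.208 CPM, by 1.79 on the log2 scale, edgeR adjusted p = 0.0210). It was not called without WT replicate 1 or 2 or naa50-1 replicate 1 or 2 (adjusted p from 0.0598 to 0.0805, edgeR).

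Several chitinases related to PR3 were called higher. Of 14 listed chitinase and chitinase-like genes, 11 were tested, 5 were called higher and 0 lower, against 3.94% and 5.59% of all genes tested. Their median log2 fold change was 0.19. Without naa50-1 replicate 2, 4 were higher, against 3.12% of genes tested in that fit. CHI rose from 1.43 ± 0.417 to 26.4 ± 9.28 CPM (4.20), AT2G43590 from 1.96 ± 0.966 to 14.1 ± 9.45 CPM (2.85), AT2G43620 from 2.79 ± 1.296 to 11.5 ± 0.657 CPM (2.05) and AT4G01700 from 3.72 ± 0.575 to 11.1 ± 1.41 CPM (1.58). Adjusted p for these 4 genes ran from 1.74e-05 to 0.00392 (edgeR). Without naa50-1 replicate 2 the change of AT2G43590 was 2.15 on the log2 scale. PR3 itself had few counts in the same libraries.

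The genes whose log2 CPM over the 6 libraries was most like that of PR2 were AT3G47570, a receptor-like kinase gene (Pearson r = 0.99996 among 21036 genes compared), AT1G09932, CML12, HIPP13 and AT1G14780 (r from 0.998 to 0.999). All 5 were called higher, with log2 fold changes of 1.11, 6.22, 3.23, 4.07 and 1.67. PR2 varies mainly between the groups, so a high r to PR2 selects such genes, and these calls are not a separate result. For PR1 they were HDG2, RPN8B, KN, AT2G40270 and ZIP9 (r from 0.991 to 0.996). Of these 5, ZIP9, a zinc transporter gene, was called (log2 fold change 2.30, adjusted p = 0.0171, edgeR) but not without WT replicate 2 or 3 (0.0680 and 0.0747), and the others had log2 fold changes from 0.14 to 0.47. The 6 libraries share their depth and fall into 2 groups, so these values describe likeness of pattern only.

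Markers of the tissue and of other cell types were read beside the PR genes. Among all genes tested, 3.94% were called higher and 5.59% lower. All 5 floral identity genes were present and none was called; AP3 was at 178 ± 31.3 and 207 ± 18.2 CPM. Of 9 mature pollen markers 7 were called lower and 0 higher, their sum being 942 to 1252 CPM in WT and 84.9 to 131.5 CPM in the libraries labelled naa50-1. Among them PPME1, a pollen pectinesterase, fell from 209 ± 26.8 to 0.651 ± 0.131 CPM, VGD1 from 394 ± 83.1 to 2.12 ± 0.926 CPM, AHA6 from 121 ± 5.10 to 0.830 ± 0.563 CPM (log2 fold change -7.18, or -7.87 without naa50-1 replicate 3) and STP9 from 82.2 ± 23.9 to 1.47 ± 0.078 CPM. Of 8 tapetum markers 1 was lower, GRP17 (903 ± 356 to 449 ± 92.9 CPM, adjusted p = 0.0452, edgeR), and with 1 library left out it kept its call only without WT replicate 2 or naa50-1 replicate 3. Their sum was 920 to 1711 CPM in WT and 924 to 1032 CPM in the others. Of 7 green tissue markers 0 were called, LHCB1.3 having the smallest p (log2 fold change -0.48, adjusted p = 0.167, edgeR), and their sums overlapped at 18244 to 23933 and 15685 to 18786 CPM. Of 8 tested leaf senescence genes, SAG13 was called higher (5.86 ± 6.19 to 25.8 ± 5.07 CPM, adjusted p = 0.0429, edgeR), a call that, with 1 library left out, it kept only without WT replicate 3, when its log2 fold change was 3.48, and the sums of the list overlapped at 202 to 307 and 290 to 311 CPM. The part of these cell types in the levels of the PR genes was not tested.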

How the data were processed

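RNA of closed buds was sequenced from 3 WT and 3 naa50-1 samples, grouped by the labels. The submitters' processing notes name HISAT2 2.0.5 and TAIR10; how reads were counted, and on which annotation and strand, is not stated there. The authors deposited whole-number read counts per gene. FPKM values were deposited by the authors as well; dividing counts by length and by the library's DESeq2-type size factor gives them back, up to 1 constant common to the 6 libraries. A further table from the authors gives log2 fold changes, p-values with adjusted p-values, and a normalized signal per group.

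Counts of all 33037 features were filtered with filterByExpr, scaled by TMM and tested by genotype with the edgeR 4.0.16 quasi-likelihood test (R 4.3.3), adjusted by Benjamini-Hochberg over all genes tested (threshold 0.05). Levels are given as mean CPM ± SD (n = 3), and FPKM served to compare levels between genes. Alternatives were other scalings and filters, DESeq2 1.42.0, limma 3.58.1 (voom, and log2 FPKM with a pseudocount of 1 or 0.1), a replicate block and leaving out each library. On data simulated for this comparison (20772 genes) the test recovered 16.4% of genes changed 1.5-fold, 71.6% changed 2-fold and 100% changed 4-fold; 14 of 139 calls were false. The changed genes were drawn above a level of WT counts that PR5 alone among the PR genes reached. These rates therefore do not cover the other PR genes. Within a group, libraries differed beyond sampling noise (chi-square over its degrees of freedom, 12.9 to 28.2). Transcripts were compared with blastn 2.17.0. The promoter of 1 of the 6 genes is not reported here.

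The PR genes and the lists were chosen with earlier results of these data known. Named genes are the 6 PR genes, NAA50, from each list the 4 called genes with the smallest p (the smallest p where none was called), family neighbours of the PR genes, and the 5 genes with the highest Pearson correlation to PR1 and to PR2 in log2 CPM (prior count 2, mean of at least 10 counts). NPR1, NPR3, NPR4, TGA1 to TGA7, WRKY70, NIMIN2, SARD4, ALD1, FMO1, PDF1.2C, MYC2, LURP1, AT3G04700, AT3G57250 and 1 unannotated transcript fall outside this rule and were chosen after their values were seen. Glucanase relatives were matched by words of the deposited descriptions, and endoglucanases were dropped after their names were seen.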

Additional observations from a re-analysis of the deposited data

How the results depend on the processing

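Across 17 alternatives, the number of genes called stayed between 1826 and 2474 (1645 to 1926 with a library left out), PR2 and PR5 kept their calls, and no direction reversed. PR genes called higher numbered 2 with limma-voom and with log2(FPKM + 1) under either filter, and 3 to 5 with a library left out. PR1 lost its call with limma-voom (log2 fold change 2.64), log2(FPKM + 1) under either filter (1.63), log2(FPKM + 0.1) (2.48) and the replicate block (2.72, adjusted p = 0.0784, edgeR); leaving out a library gave 1.97 to 3.64, with the call lost without any WT library or naa50-1 replicate 2. BG3 lost its call with limma-voom (3.22) and log2(FPKM + 1) under either filter (1.67); leaving out a library gave 2.42 to 3.98. PR4 gained a call with no filter (1.61) and DESeq2 (1.62); leaving out a library gave 1.15 to 2.23, with a call without WT replicate 3 or naa50-1 replicate 3. The cause was not tested.

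Counts for the lists under the settings, and values of the other named genes with a library left out, were added after seeing the data. The salicylate perception list had 3 higher with unfiltered log2(FPKM + 1) and 4 to 6 with a library left out, and the supply list 9 to 10. The ethylene and jasmonate list had 4 with library totals, 5 with no filter or DESeq2, 1 with limma-voom or unfiltered log2(FPKM + 1), and 2 to 4 with a library left out (4 without naa50-1 replicate 1).

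Replicate numbers did not pair the libraries: same-numbered deviations correlated at -0.0002, 0.059 and 0.102. The replicate block gave 1969 genes called against 2021 and, among the PR genes, changed the call of PR1 alone. Low counts limit PR3 (0 to 12 counts a library) and, in WT, PR1 and BG3 (5 to 17 counts). P-values of the fits weigh the difference between genotypes against the variation among 3 libraries each, moderated by that of all genes.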
